A study of Mus musculus with 2 samples.

Results

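The Ly6 genes and Thy1 code for small surface proteins that are held on the outer face of the plasma membrane by a glycosylphosphatidylinositol (GPI) lipid anchor instead of a transmembrane segment. The members described here were Ly6a, Ly6c1, Ly6c2, Ly6d, Ly6e, Ly6k and Thy1, taken by gene symbol from the GENCODE M21 annotation of the mm10 mouse genome. They are 7 of the 55536 genes in the deposited gene tables, of which 22028 are protein-coding, and each symbol matched 1 gene. The cells are labelled as male, aged 4 months, and as activated regulatory T cells, a T-cell lineage that expresses Foxp3 and restrains immune responses, and their polyadenylated RNA was sequenced. The strain, Foxp3CreERT2 x Rosa26YFP, carries a tamoxifen-inducible Cre recombinase at Foxp3 and a YFP reporter at Rosa26. There was 1 group, made of 2 technical libraries of 1 biological replicate, so means and SDs below describe these libraries and not mice. The labels give bone marrow hematopoietic cells as the cells' origin and do not say whether cells of several mice were pooled, how the cells were sorted or activated, whether tamoxifen was given, or the inbred background. Both libraries carry the same alleles, and the design holds no cells without them.

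Ly6 proteins share a fold of finger-like loops tied together by disulfide bonds between cysteines, the fold of the Ly6/uPAR superfamily. Thy1 has the same kind of anchor but a single immunoglobulin-like domain. A GPI anchor is assembled on the endoplasmic reticulum membrane by the PIG proteins, moved as a block onto the end of the new protein by the GPI transamidase, and then trimmed by the PGAP enzymes. In mouse T cells several of these proteins serve as surface markers of lineage and activation, and Ly6a, Ly6c and Ly6e are known to respond to interferon.

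The reference sequences of the Ly6 members bear directly on how well their reads could be told apart. Of the 21 pairs among the 7 main coding transcripts, Ly6c1 and Ly6c2 were the most alike, with 97.7% identity over 393 aligned bases, 9 differing bases and a longest identical run of 188 bases. Ly6a was 81.8% identical to Ly6c1, with a longest identical run of 48 bases, and 81.6% identical to Ly6c2, with a run of 52 bases. The remaining 18 pairs had 46.2 to 52.2% identity and no identical run above 9 bases. The coding stretch below, from base 39 of each coding sequence, is shown because it holds that longest identical run. It was read from the GENCODE M21 transcripts and is given 5′ to 3′ on the coding strand, the minus strand of chromosome 15. Capitals in the Ly6c1 and Ly6c2 lines mark the bases that differ between those genes, and capitals in the Ly6a line mark bases that differ from Ly6c1 or have no counterpart in it.
Ly6c1-201: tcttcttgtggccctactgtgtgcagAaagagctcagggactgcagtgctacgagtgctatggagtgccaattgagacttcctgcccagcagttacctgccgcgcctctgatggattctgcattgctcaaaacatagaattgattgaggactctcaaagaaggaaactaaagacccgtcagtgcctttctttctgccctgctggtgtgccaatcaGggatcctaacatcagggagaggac
Ly6c2-201: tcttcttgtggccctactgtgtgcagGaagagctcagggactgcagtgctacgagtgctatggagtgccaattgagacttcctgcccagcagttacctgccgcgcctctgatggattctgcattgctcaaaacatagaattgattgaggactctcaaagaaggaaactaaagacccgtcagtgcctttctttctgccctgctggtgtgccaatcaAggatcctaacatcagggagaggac
Ly6a-201: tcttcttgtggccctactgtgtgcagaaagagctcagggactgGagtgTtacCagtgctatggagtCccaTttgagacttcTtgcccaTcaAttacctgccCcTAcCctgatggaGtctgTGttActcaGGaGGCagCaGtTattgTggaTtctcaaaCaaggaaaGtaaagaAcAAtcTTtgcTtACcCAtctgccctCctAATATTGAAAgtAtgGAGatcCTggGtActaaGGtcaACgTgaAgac
The Ly6c1 and Ly6c2 lines differ at 2 of 240 bases, whereas the Ly6a line has 63 capitals over 249 bases. A read of 50 bases that starts and ends between the capitals of the Ly6c lines carries no base that assigns it to either gene.

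All 7 members were detected at 1 TPM (the read estimate scaled by transcript length and by the total of the library) or more in both libraries, against 46.2% of all protein-coding genes. Their levels spanned 3 tiers. Ly6e, Ly6a and Thy1 were above 100 TPM, Ly6c1 and Ly6c2 were between 10 and 100 TPM, and Ly6k and Ly6d were below 10 TPM. The median of the 7 was 61.5 TPM, and the median over the 10171 protein-coding genes at 1 TPM or more in both libraries was 18.1 TPM. The members were chosen with earlier results of these data known, so these comparisons describe this list and not the Ly6 family. Of 32 other listed Ly6/uPAR genes, described below, 1 reached 1 TPM in both libraries. The summed level of the members was 2777 TPM in library 2 and 2519 TPM in library 1, made of 0.210% and 0.195% of the reads assigned to genes.

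**Figure D1:**
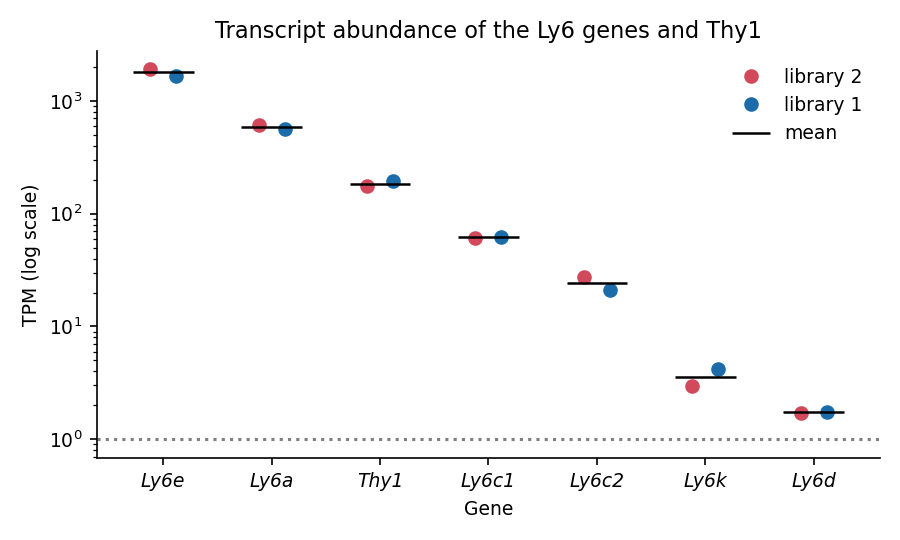
Transcript abundance in TPM (log axis) of each member in library 2 (left point) and library 1 (right point), with the mean of both as a bar and 1 TPM as a dotted line. Both libraries give the same order, with Ly6e at 1903 and 1672 TPM at the top and Ly6d at 1.72 and 1.74 TPM at the bottom.

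Ly6e (ENSMUSG00000022587.14, chr15:74955051-74959905, plus strand), also known as TSA-1 or Sca-2, is a thymocyte and lymphocyte antigen that is also known to alter the entry of several viruses. It had 1903 TPM in library 2 and 1672 TPM in library 1, from 22902 and 21281 expected counts. Its mean was 1788 ± 163 TPM (SD, n = 2), rank 63 among the 22028 protein-coding genes. Ly6e alone made up 67.5% ± 1.52 of the summed TPM of the members, more than the other 6 together.

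Ly6a (ENSMUSG00000075602.10, chr15:74994877-74998031, minus strand) codes for Sca-1, the antigen used to sort mouse hematopoietic stem cells and also found on activated T cells. It had 606 TPM in library 2 and 564 TPM in library 1, from 5569 and 5491 expected counts. The mean was 585 ± 30.0 TPM (SD, n = 2), rank 194, and 22.1% ± 0.389 of the members' sum. Within a library Ly6e exceeded Ly6a 3.14-fold and 2.97-fold, a mean ratio of 3.05 ± 0.123.

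Thy1 (ENSMUSG00000032011.5, chr9:44043384-44048579, plus strand) codes for CD90, the classical marker of mouse T cells and the only member that lies outside chromosome 15. It had 175 TPM in library 2 and 194 TPM in library 1, from 1516 and 1796 expected counts. The mean was 184 ± 13.7 TPM (SD, n = 2), rank 645. The ratio of Ly6a to Thy1 was 3.19 ± 0.401 in TPM. Both the level of Thy1 and this ratio depended on how its reads were spread over its transcripts, as described with the transcripts.

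Ly6c1 (ENSMUSG00000079018.10, chr15:75044018-75048830, minus strand) and Ly6c2 (ENSMUSG00000022584.14, chr15:75108158-75111970, minus strand) together code for the antigen that antibodies against Ly6C detect on monocytes and on subsets of T cells. Ly6c1 had 60.8 TPM in library 2 and 62.1 TPM in library 1, from 555 and 562 expected counts, a mean of 61.5 ± 0.891 TPM (SD, n = 2) and rank 2023. Ly6c2 had 27.5 TPM in library 2 and 20.9 TPM in library 1, from 210 and 196 expected counts, a mean of 24.2 ± 4.64 TPM and rank 4212. Ly6c1 was thus the more abundant of the pair in both libraries, by 2.21-fold and 2.97-fold (mean 2.59 ± 0.533). The deposited credibility bounds, whose confidence level no source used here gives, lie around a posterior mean TPM that is lower than the TPM itself. They ran from 50.8 to 61.7 TPM for Ly6c1 and from 20.4 to 28.9 TPM for Ly6c2 in library 2, and from 50.5 to 62.1 TPM and from 16.0 to 23.2 TPM in library 1, so the pair's bounds did not overlap in either library.

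Ly6k (ENSMUSG00000044678.11, chr15:74796874-74799986, minus strand), known for its part in sperm function in the mouse, had 2.95 TPM in library 2 and 4.22 TPM in library 1, from 22 and 31 expected counts. Ly6d (ENSMUSG00000034634.7, chr15:74762056-74763620, minus strand), also known as ThB, marks lymphoid progenitors that lean to the B-cell lineage and is found on keratinocytes. It had 1.72 TPM in library 2 and 1.74 TPM in library 1, from 14 and 15 expected counts. Both genes were above zero but rested on few reads. In library 2 their credibility bounds overlapped, with 1.67 to 3.96 TPM for Ly6k and 0.856 to 2.47 TPM for Ly6d. In library 1 the bounds were 2.55 to 5.26 TPM and 0.880 to 2.46 TPM and did not overlap. Ly6k and Ly6d were the only neighbours in the order of levels whose bounds overlapped in a library.

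Markers of the labelled cells were present and those of other cell types were mostly low. The 6 regulatory T-cell markers summed to 1919 TPM in library 2 and 1725 TPM in library 1. On average Cd3e had 648 TPM and Cd4 had 212 TPM, and neither is particular to regulatory T cells. Ikzf2 had 468 TPM, Il2ra 239 TPM, Ctla4 232 TPM and Foxp3, the lineage-defining factor, 22.4 TPM on average. Of the 5 monocyte and macrophage markers, which matter here because monocytes carry Ly6C, the sum was 3.68 TPM in library 2 and 1.36 TPM in library 1, and Cd14 was at 0 in both. Lyz2, a lysozyme of myeloid cells, had 2.83 TPM in library 2 and 0.61 TPM in library 1. Csf1r had 0.32 and 0.04 TPM and Adgre1 0.08 and 0 TPM, whereas Itgam went the other way with 0.45 and 0.71 TPM. The TPM of Ly6c2 was also higher in library 2, but its counts did not pass the comparison of the libraries described below. For the B-cell and epithelial sources of Ly6d, the B-cell markers Cd79a and Ms4a1 had 1.7 and 0.39 TPM in library 2 and 1.26 and 0.67 TPM in library 1. The 3 epithelial markers summed to 1.51 and 0.86 TPM with Krt5 and Krt14 at 0. The 5 neutrophil markers summed to 0.19 and 0.36 TPM with Ly6g and S100a9 at 0, and the 3 natural killer cell markers to 2.15 and 1.63 TPM with Ncr1 at 0. The 3 endothelial markers summed to 79.0 and 77.5 TPM, nearly all of it Pecam1, with Cdh5 at 0.02 and 0.08 TPM, and endothelial cells are known to carry Ly6a and Ly6c1. The 3 plasmacytoid dendritic cell markers summed to 74.1 and 42.0 TPM through Bst2 and Ccr9, with Siglech at 0, and the 2 cytotoxic T-cell markers to 15.6 and 11.4 TPM. The part of such cells in the levels of the members was not tested, and in bulk RNA the number of cells of a type and the RNA per cell cannot be told apart.

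The 6 Ly6 members lie in 1 cluster on chromosome 15. In the order of coordinates, the gaps were 33.3 kb between Ly6d and Ly6k, 155 kb between Ly6k and Ly6e, 35.0 kb between Ly6e and Ly6a, 46.0 kb between Ly6a and Ly6c1, and 59.3 kb between Ly6c1 and Ly6c2. Over the 837 kb from Ly6d to Gpihbp1, the annotation holds 43 genes, 19 of them protein-coding and 19 pseudogenes. The Ly6 members took 99.6% of the TPM over this stretch in both libraries. Beyond the 6 members, 2 of the 43 genes reached 1 TPM in both libraries, the long non-coding RNA Gm39556 at 6.48 and 6.0 TPM and the processed pseudogene Gm6610 at 1.2 and 1.17 TPM in libraries 2 and 1. No reads were assigned to 25 genes, 16 of which are pseudogenes.

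**Figure D2:**
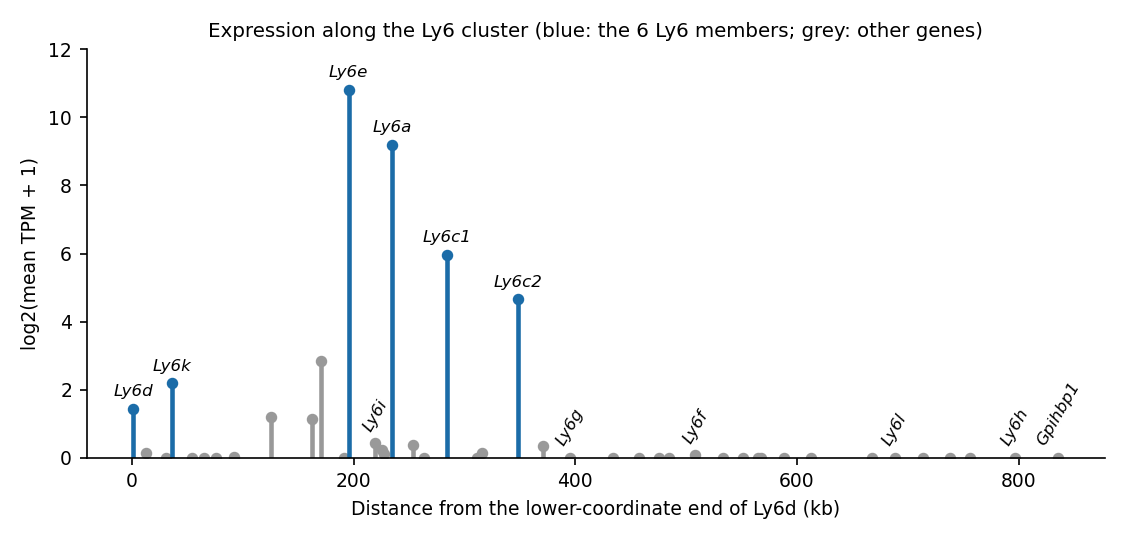
Mean level, as log2(mean TPM + 1), of the 43 genes from Ly6d to Gpihbp1 against distance along the chromosome in kb, with the Ly6 members in blue and other genes in grey. The 4 tallest genes, Ly6e, Ly6a, Ly6c1 and Ly6c2, are neighbours in the middle left of the cluster, and the right of the cluster is at or near 0.

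The other Ly6/uPAR genes listed for comparison were low or had no reads. The list held 35 symbols, of which 32 are annotated, and does not cover the whole superfamily. Of these 32, 1 reached 1 TPM in both libraries, beside 46.2% of all protein-coding genes. This was Ly6g5b, at 2.51 TPM in library 2 and 1.85 TPM in library 1. Lynx1, a modulator of nicotinic receptors, had 1.57 and 0.80 TPM, and Plaur, the urokinase receptor, had 0.81 and 0.84 TPM. No reads were assigned to 19 of the 32 in either library. Among these was Ly6g, the neutrophil antigen, for which 3 reads would have amounted to 0.435 TPM in library 2 and 0.410 TPM in library 1. Gpihbp1, the lipoprotein lipase carrier of capillaries, was also at 0, where 3 reads would have been 0.289 and 0.273 TPM. Ly6i, which shares sequence with Ly6a, had 5.20 and 3.10 expected counts, or 0.46 and 0.23 TPM.

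The genes that build the GPI anchor were broadly detected, at lower levels than the leading members. Of 29 anchor assembly and remodelling genes, 28 were at 1 TPM or more in both libraries, 19 at 10 TPM or more and 1 at 100 TPM or more, with a median of 14.98 TPM. The highest were Dpm3 at 122 and 121 TPM, Pigx at 97.3 and 104 TPM and Dpm2 at 97.1 and 94.0 TPM in libraries 2 and 1. Dpm1, Dpm2 and Dpm3 are subunits of the enzyme that supplies mannose, and Dpm1 had 67.9 and 47.3 TPM. Mppe1, which remodels the finished anchor, had 58.4 and 50.5 TPM. Pigu, a subunit of the GPI transamidase, had 27.3 and 25.5 TPM. Piga, the catalytic subunit of the enzyme that starts anchor synthesis, had 5.25 and 4.99 TPM, and Pigz was the exception below 1 TPM at 0.04 and 0.33 TPM.

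Other GPI-anchored proteins of lymphocytes ranged from 0 to 2708 TPM on average. Of 12 such genes, 9 were at 1 TPM or more in both libraries. Cd52, a very small lymphocyte glycoprotein, had 2688 TPM in library 2 and 2727 TPM in library 1, above Ly6e. Izumo1r, the folate receptor 4 of regulatory T cells, had 859 and 734 TPM, and Cd48, a ligand of CD2, had 500 and 524 TPM. Nt5e, the ecto-enzyme CD73, had 143 and 127 TPM, and Art2b, a T-cell ADP-ribosyltransferase, had 53.6 and 41.1 TPM. In mean TPM per gene, Ly6a lay between Izumo1r and Cd48, and Thy1 lay between Cd48 and Nt5e. The place of Thy1 depended on how its reads were spread over its transcripts, as described below. With all its reads placed on its coding transcript, Thy1 would have 81.4 TPM, below Nt5e at 135 TPM and above Art2b at 47.4 TPM. That alternative was chosen after seeing the data, and the levels of Nt5e and Art2b were left as they were. No reads were assigned to Cd24a in either library.

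Most members had 1 dominant transcript model. For Ly6e, Ly6e-215, a coding transcript of 1122 bases, took 82.2% of the gene's TPM in library 2 and 81.5% in library 1, out of 16 annotated transcripts. For Ly6a, Ly6a-201 took 80.1% and 74.8%, out of 6 transcripts that are all coding. This split was uncertain, with posterior SDs of 217 and 237 reads for Ly6a-201. Ly6a-202 was given 0 reads in library 2 and 611 in library 1. Ly6d has a single transcript. For Ly6c1, Ly6c1-201 took 93.1% and 78.3%, but this split was uncertain too. Its 56.6 and 48.6 TPM lay above its own credibility bounds, which ended at 51.4 TPM in library 2 and 47.3 TPM in library 1. This does not set Ly6c1-201 apart, because the TPM of Ly6e-215 and Ly6a-201 also lay above their bounds in both libraries. Ly6c1-202, of 838 bases against 844 for Ly6c1-201, was given no reads, yet had posterior SDs of 83.5 and 74.1 reads and bounds that reached 27.0 and 21.8 TPM. For Ly6k, Ly6k-202 took 59.2% and 83.6%, a split of only 22 and 31 reads.

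Thy1 was the member whose leading transcript depended on the measure. By TPM it was led by Thy1-203, a processed transcript of 449 bases with no coding sequence, which took 56.2% in both libraries. Thy1-201, the coding transcript of 1735 bases, took 24.7% of the TPM in library 2 and 25.5% in library 1. By expected count the order was the reverse, with 851 and 1035 reads (56.9% ± 1.09) on Thy1-201 and 459 and 541 reads (30.2% ± 0.120) on Thy1-203. The short model thus carried fewer reads but counted for more molecules after scaling by length. If all reads of Thy1 were placed on Thy1-201, an alternative chosen after seeing the data, its level would be 81.4 ± 6.41 TPM, 44.0% and 44.3% of the deposited value. With the reads of every member placed on the transcript that held most of them, the ratio of Ly6a to Thy1 was 7.37 instead of 3.19, and that of Thy1 to Ly6c1 was 1.40 instead of 3.00.

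For Ly6c2 the transcript split moved the level between the libraries. Ly6c2-201 took 42.9% of the gene's TPM in library 2 and 75.0% in library 1. Ly6c2-203 took 38.2% and 23.2%, and Ly6c2-204 took 18.81% and 0.51%. The effective length of the gene, which weights its transcripts by these shares, was 653 bases in library 2 and 753 bases in library 1. The expected counts of 210 and 196 were therefore closer to each other than the 27.5 and 20.9 TPM. The transcript split was uncertain. Ly6c2-203 had posterior SDs of 25.03 and 15.77 reads on 72.3 and 35.45 reads in libraries 2 and 1. For Ly6c2-204 the posterior SDs were 15.56 and 11.11 reads on 29.58 and 0.65 reads.

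**Figure D3:**
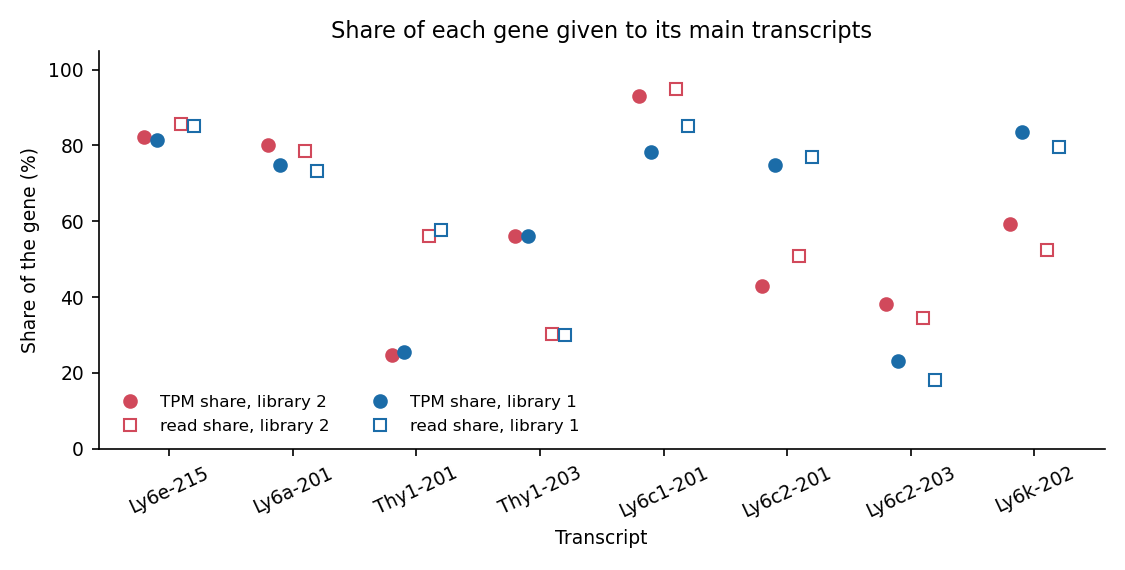
Share in percent of each gene's TPM (filled circles) and of its expected count (open squares) given to the main transcripts, in library 2 (red) and library 1 (blue). Thy1-203 and Thy1-201 change order between circles and squares, and Ly6c2-201 and Ly6k-202 differ most between the libraries.

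Sequence shared with other genes was found by cutting each annotated transcript into windows of 50 bases, the read span given by the deposited lengths, and searching all other genes' transcripts on either strand. Ly6e, Thy1 and Ly6d had no shared window. Of the windows of Ly6c1-201, 36.7% (292 of 795) occurred in other genes, all of them in Ly6c2 or Ly6a. For Ly6c2-201 the share was 33.0% (255 of 773). The retained-intron transcript Ly6c2-202 shared windows with 538 other genes, among them Pigu and Art2b with 2 windows each. For Ly6a-201 it was 8.05% (62 of 770), with windows found in Ly6c1, Ly6c2, Ly6i and the pseudogene I830127L07Rik. The last had 2.09 and 2.06 expected counts in libraries 2 and 1. For Ly6k-202 the share was 15.3% (86 of 563), and the partner was Gm17189, an antisense gene that overlaps Ly6k on the opposite strand and was assigned no reads. No source used here says whether the counting used strand, so reads from the shared windows could come from either gene.

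The uncertainty that the deposited tables attach to read assignment was highest for the Ly6c pair. The posterior SD of the count was 9.37 and 9.34 reads for Ly6c2 in libraries 2 and 1, or 4.46% and 4.77% of its count. For Ly6c1 it was 9.74 and 9.61 reads, or 1.75% and 1.71%. For Ly6k it was 0.27 and 0.39 reads, or 1.23% and 1.26%. For Ly6a it was 2.39 and 2.66 reads, under 1% of the count, although windows were shared, and for Ly6e, Thy1 and Ly6d it was 0. These SDs refer to the split of reads among the annotated genes, not to the sampling of reads or to mice. Ly6 alleles are known to differ between inbred strains, and the effect of such differences from the mm10 reference on the split was not tested.

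**Figure D4:**
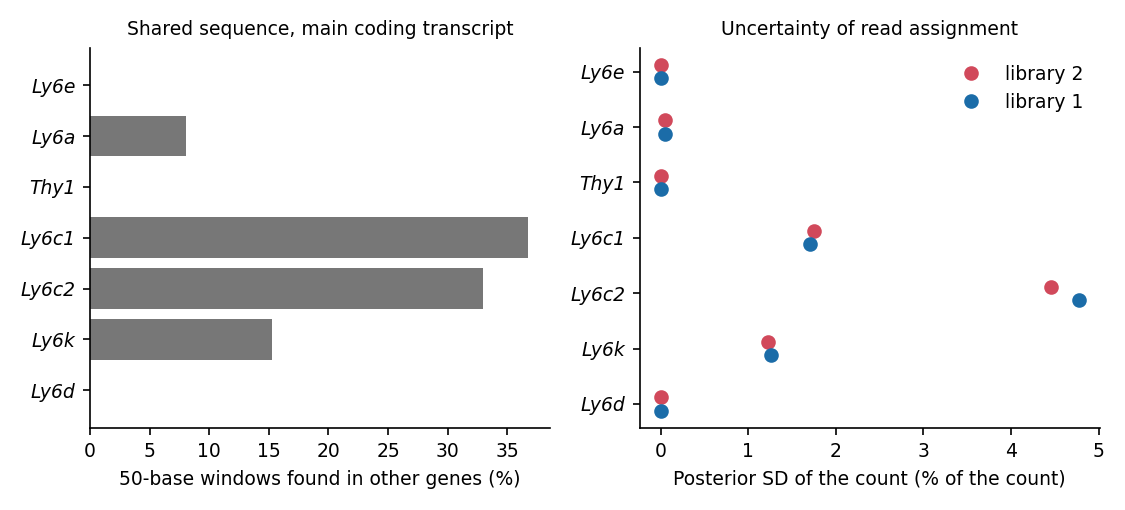
Left, percent of the 50-base windows of each member's main coding transcript that occur in transcripts of other genes. Right, posterior SD of the gene's expected count as a percent of that count, in library 2 (red) and library 1 (blue). Ly6c1-201 and Ly6c2-201 share 36.7% and 33.0% of their windows, and Ly6c2 has the widest posterior SD, at 4.46% and 4.77%.

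The libraries were compared with a two-sided exact binomial test on each gene's rounded expected counts, with Benjamini-Hochberg adjustment over all genes tested, which compares these 2 libraries and not a condition. It called 2 of the 7 members at an adjusted p below 0.05, beside 24.3% of all genes tested (4198 of 17271). Ly6e was higher in library 2, with a log2 ratio of library 2 over library 1 of 0.15 (exact binomial test, adjusted p = 5.74e-25). Thy1 was lower in library 2, with a log2 ratio of -0.20 (exact binomial test, adjusted p = 0.000705). The other 5 members did not pass, with log2 ratios of 0.06 for Ly6a, 0.02 for Ly6c1, 0.14 for Ly6c2, -0.44 for Ly6k and -0.05 for Ly6d. The exact test takes counting error as the only spread. With edgeR's exact test at a fixed dispersion of 0.01, 492 of 17271 genes (2.85%) and 0 of the 7 members were called. By that test 2007 genes had an unadjusted p below 0.05.

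The second deposited gene table, whole-number counts on the older GENCODE M4 annotation, gave much lower counts for the abundant members. Ly6e had 1025 counts in library 2 and 1026 in library 1, which is 4.64% of its expected count. Ly6a had 690 counts in each library, or 12.5%, and Thy1 had 314 and 343 counts, or 19.8%. The Ly6c genes had 125 and 131 counts for Ly6c1 (22.9%) and 56 and 38 counts for Ly6c2 (23.2%). Ly6k had 14 and 28 counts (79.2%) and Ly6d had 13 and 6 counts (65.5%).

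These percentages were below the median of genes of like depth for 5 of the 7 members. Over protein-coding genes the median percentage was 40.3% at 10 to 100 expected counts, 44.1% at 100 to 1000, 34.7% at 1000 to 10000 and 5.05% at 10000 or more. Ly6e had nearly the median of its class, Ly6a, Thy1, Ly6c1 and Ly6c2 were below the median of theirs by a wider margin, and Ly6k and Ly6d were above. All 7 members lay within the 10th to 90th percentiles of their class, so none stood apart from genes of like depth. From the lowest class to the highest, these ran from 5.99 to 80.9%, 12.8 to 73.5%, 7.77 to 62.7% and 0.267 to 23.5%. In this table Ly6e had 0.952 and 0.954 counts per base of its gene length, and Ly6a had 0.827 counts per base in both libraries. Scaled per kilobase of exon, Ly6a was above Ly6e in this table, with a ratio of Ly6e to Ly6a of 0.473, whereas Ly6e was above Ly6a in its unscaled counts and, by 1.15-fold, per base of gene length. No member differed between the libraries in this table by the same exact test, where 1092 genes (9.95%) were called and 2515 genes had an unadjusted p below 0.05. No source used here names the counter of this table or its filters. It is therefore not known whether such counts could show a difference between the libraries. The lack of called members here is not read as a result.

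**Figure D5:**
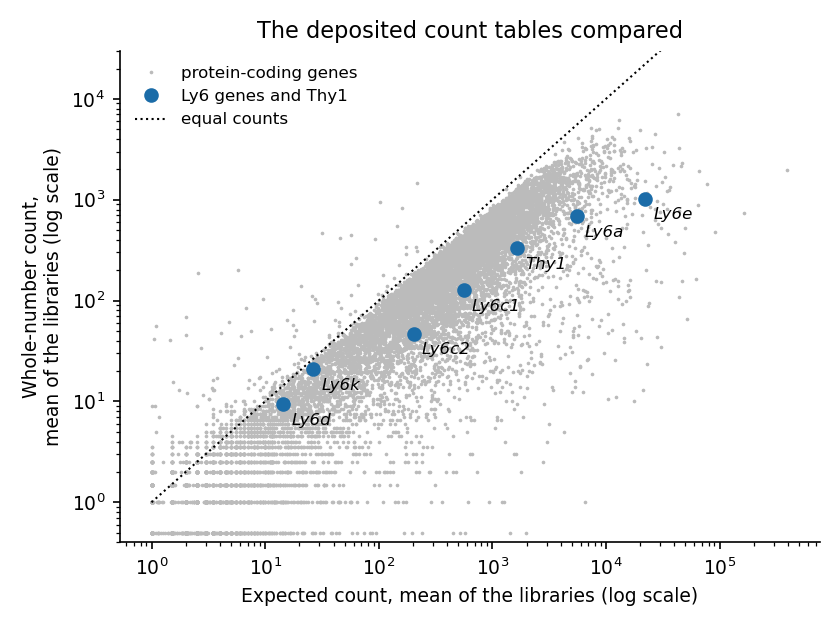
Whole-number count against expected count, each the mean of both libraries on a log axis, for protein-coding genes (grey) and the members (blue), with equal counts as a dotted line. Ly6k and Ly6d lie near the line, and the gap widens to Ly6e, whose whole-number count is 4.64% of its expected count.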

How the data were processed

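Poly(A) RNA was sequenced in 2 technical libraries, with 15076048 (library 1) and 14635787 (library 2) reads assigned to genes. Rows naming no gene held 0.142% and 0.186% of the reads and were left out. Per the file headers, the authors deposited an expected count, TPM, FPKM, posterior means, posterior SDs, credibility bounds and, for transcripts, the isoform percent, quantified on mm10 with GENCODE M21, per the listing deposited with each sample. The authors also deposited whole-number gene counts on GENCODE M4, with totals of 3478224 and 3475360. No source used here names the quantifier, the counter, the filters or the strandedness. Symbols, coordinates (1-based) and sequences came from GENCODE M21. Expected counts were rounded for the library test, which used genes with a summed count of 10 or more. Alternatives were TMM and DESeq2 scaling, no minimum, the whole-number table and edgeR's exact test at a dispersion of 0.01. The script for the test was checked on simulated Poisson counts. That is the spread the test assumes, so the check does not cover any further spread in these libraries. Alignments were global, over whole coding sequences. Tools were Python 3.11.15, pandas 2.3.3, scipy 1.17.1, Biopython 1.88, R 4.3.3, edgeR 4.0.16 and DESeq2 1.42.0. All 7 members are named, and of each companion list the genes at 1 TPM or more in both libraries, up to the 5 highest, and those sharing 50-base windows with a member. Further genes of these lists were named after their values were seen. A B-cell marker of the lists is not reported here. The members, lists and tests were chosen with earlier results of these data known. The exact binomial p-values set the difference between these technical libraries against counting error only, and no spread between libraries was estimated. The edgeR dispersion of 0.01 was assumed, not measured. Limits given for genes with no reads cover counting error only.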

Additional observations from a re-analysis of the deposited data

How the results depend on the processing

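All 7 members stayed at 1 TPM or more with the posterior mean TPM. Of the 32 other listed Ly6/uPAR genes, 3 were at 1 or more in both libraries by that measure, against 1 by TPM. Each library alone gave ratios of 2.97 to 3.14 for Ly6e to Ly6a, 2.91 to 3.47 for Ly6a to Thy1 and 2.21 to 2.97 for Ly6c1 to Ly6c2, a share of 66.4 to 68.5% for Ly6e, 56.18 to 56.2% for Thy1-203 and 24.7 to 25.53% for Thy1-201. The whole-number table per kilobase of exon reversed the ratio of Ly6e to Ly6a, to 0.473, and of Ly6c2 to Ly6k, to 0.810 on average (1.21 in library 2 and 0.411 in library 1), and gave 5.23 for Ly6a to Thy1 and 4.64 for Ly6c1 to Ly6c2. The cause was not tested. Per base of gene length, chosen after seeing the data, the same table gave 1.15 for Ly6e to Ly6a, 2.00 for Ly6a to Thy1 and 2.49 for Ly6c2 to Ly6k. Expected counts without length scaling gave 3.99 for Ly6e to Ly6a, 73.4% for the share of Ly6e, 30.2% for Thy1-203 and 56.9% for Thy1-201. Placing all reads on the leading transcript, also chosen after seeing the data, gave 2.87 for Ly6e to Ly6a and 7.37 for Ly6a to Thy1. The count of genes that differed between the libraries was 4198 of 17271 tested (24.3%), with TMM 4186 (24.2%) and with DESeq2 size factors 4190 (24.3%). With no minimum it was 3696 of 29872 (12.4%). Ly6e and Thy1 were among the called genes in each. In the whole-number table the count was 1092 of 10978 (9.95%). With edgeR at a fixed dispersion it was 492 of 17271 (2.85%), and 0 of the 7 members were called in either. With windows of 36 and 100 bases, the shared part was 42.9% and 10.1% of Ly6c1, 20.9% and 5.81% of Ly6c2 and 28.8% and 1.45% of Ly6a, against 32.8%, 14.5% and 19.0% over all their transcripts at 50 bases. Of 115 values recomputed with both libraries, 54 stayed within a set limit, 59 moved further and 2 reversed. The limit was the SD between libraries for levels, ratios and shares, and 1.5 times for counts. For window shares it was the 95% Wilson interval of the 50-base share. The 59 include levels in FPKM and posterior mean TPM, both of which were lower than the TPM for every member. Leaving out 1 of 2 libraries cannot move a mean by more than the SD, so it says nothing about stability. Ly6k and Ly6d, with 14 to 31 reads, are limited by depth.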
